A study of Homo sapiens with 6 samples.

Results

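The genes described here are 9 members of the interleukin 1 (IL1) system, namely the agonist ligands IL1A, IL1B, IL18 and IL33, the antagonist IL1RN, the signalling receptor IL1R1 with its co-receptor IL1RAP, the decoy receptor IL1R2 and the receptor-associated kinase IRAK2. They were chosen by name, with earlier results of these data known, and each matched 1 of the 56478 gene rows of a read count table. The table holds 6 RNA-seq libraries of the established cell line BT20, derived from a human triple negative breast cancer, grown in medium with 10% fetal bovine serum and given no further treatment. Of these, 3 carried a control hairpin (shControl, vector pLK0-shControl) and 3 a hairpin against cytokeratin 5 (shCK5-22, vector pLK0-shCK5-425222), so both groups carried a hairpin vector and each group rests on 1 hairpin. The sources used here do not say whether the cells of a group came from a clone or a pool. The question was which of these transcripts differ in level when the cytokeratin 5 gene KRT5 is knocked down.

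IL1A and IL1B bind IL1R1, which then recruits IL1RAP, and the adaptor MYD88 and the IRAK kinases carry the signal to NF-kB and MAP kinases. IL1RN encodes the receptor antagonist, which occupies IL1R1 without recruiting IL1RAP, and IL1R2 binds the agonists but lacks a signalling domain. IL1 alpha acts as an alarm signal released from damaged epithelial cells, whereas IL1 beta is made as a precursor that caspase 1 cleaves. IL18 and IL33 act through receptors of their own, IL18R1 and IL1RL1.

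Of the members, 5 lie on chromosome 2 (GRCh38, GENCODE release 29). IL1R2 (101991844 to 102028544, plus strand) and IL1R1 (102064544 to 102179874, plus strand) are 36 kb apart, and IL1A (112773915 to 112784590, minus strand) is followed by IL1B (112829751 to 112836903, minus strand) after 45.2 kb and by IL1RN (113107214 to 113134016, plus strand) after a further 270.3 kb. IRAK2 (10164865 to 10243743, plus strand) and IL1RAP (190514051 to 190659750, plus strand) are on chromosome 3, IL18 (112143251 to 112164117, minus strand) on chromosome 11 and IL33 (6215786 to 6257983, plus strand) on chromosome 9. Exons of IL1A, IL1B, IL1RN, IL1R2, IRAK2, IL18 and IL33 overlap no other annotated gene. IL1R1 shares 11 exonic bases with an antisense gene and IL1RAP 535 with a long non-coding RNA, and 4.35% of the 50-base windows of IL1RAP transcripts occur in other genes, so a part of these counts is uncertain.

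The promoters of the neighbouring ligand genes are shown because the agonists and the antagonist moved in opposite directions, and that of IL1R2 because it rose with the agonists. IRAK2 rose with the agonists too, and more than IL1R2 did. Its promoter, which held none of the motifs searched, is not shown. Each sequence is the 250 bases before a transcription start, 5′ to 3′ on the gene's strand, from RefSeq on GRCh38.p14, with motif matches in capitals. Of the 3 starts listed for IL1RN the upstream and middle ones are shown. Of the 2 each for IL1A and IL1R2 the upstream one is shown. GENCODE begins IL1A, IL1B and IL1R2 inside the windows shown, at 112784590, 112836903 and 101991844. The bases after these positions thus lie within the gene in that annotation. The AP-1 match of IL1A is among them, and the kappa B match of IL1R2 ends on the first base of the gene. GENCODE has a transcript start in the upstream and downstream windows of IL1RN but none in the middle one. It begins the IL1RN gene further upstream than all 3, at 113107214. The counts do not separate starts.
IL1A, chr2:112784494-112784743, minus strand: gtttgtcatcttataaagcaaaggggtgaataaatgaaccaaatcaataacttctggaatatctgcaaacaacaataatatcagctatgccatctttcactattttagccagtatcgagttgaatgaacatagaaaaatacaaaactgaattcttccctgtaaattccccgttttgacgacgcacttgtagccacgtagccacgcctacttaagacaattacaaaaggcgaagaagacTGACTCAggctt
IL1B, chr2:112836780-112837029, minus strand: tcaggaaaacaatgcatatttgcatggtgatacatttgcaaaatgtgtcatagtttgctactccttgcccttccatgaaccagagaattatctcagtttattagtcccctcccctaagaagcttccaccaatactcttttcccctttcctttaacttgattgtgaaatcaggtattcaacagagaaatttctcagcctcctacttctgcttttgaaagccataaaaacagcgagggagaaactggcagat
IL1RN upstream start, chr2:113117721-113117970, plus strand: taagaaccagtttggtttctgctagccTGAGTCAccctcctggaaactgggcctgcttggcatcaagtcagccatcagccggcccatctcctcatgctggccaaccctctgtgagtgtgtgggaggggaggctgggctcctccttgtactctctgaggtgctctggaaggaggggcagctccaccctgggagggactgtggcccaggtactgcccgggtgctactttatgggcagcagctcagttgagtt
IL1RN middle start, chr2:113127239-113127488, plus strand: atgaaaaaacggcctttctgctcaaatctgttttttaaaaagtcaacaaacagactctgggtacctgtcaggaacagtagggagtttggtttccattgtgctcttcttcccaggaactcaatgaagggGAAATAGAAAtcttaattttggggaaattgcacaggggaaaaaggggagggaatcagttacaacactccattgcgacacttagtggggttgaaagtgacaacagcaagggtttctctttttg
IL1R2, chr2:101991710-101991959, plus strand: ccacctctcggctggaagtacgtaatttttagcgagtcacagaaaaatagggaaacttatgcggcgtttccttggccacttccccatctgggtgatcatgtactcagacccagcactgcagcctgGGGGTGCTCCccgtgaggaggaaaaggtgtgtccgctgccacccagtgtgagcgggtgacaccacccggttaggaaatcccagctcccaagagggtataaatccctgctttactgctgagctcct

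In all, 8 of the 9 members had an entry in that promoter table, with 16 windows among them, and IL18 had none. The AP-1 motif TGANTCA, which reads the same on both strands, occurred in 3 windows, 2 overlapping ones of IL1A and the upstream window of IL1RN. The interferon response core, a GAAA repeat with any pair of bases between, occurred in 2 overlapping windows of IL1RN, those of its middle and downstream starts, and the kappa B consensus in 1 window, that of IL1R2. Both strands were searched. Of 35116 promoter windows of this length, 6.57% held the AP-1 motif, 3.02% the interferon response core and 9.96% the kappa B consensus. IL1B, IL1R1, IL1RAP, IRAK2 and IL33 held no match to these letters.

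Libraries held between 47622067 and 65429616 counts. KRT5 was lower by 3.41 on the log2 scale in shCK5-22 (SE 0.0448; fold 10.7; edgeR's quasi-likelihood test, adjusted p = 1.23e-20), the direction the labels give. The library of shCK5-22 replicate 1 stood apart from the other knockdown libraries, with a chi-square per degree of freedom of 34.2 and 20 against them, where the other pair had 5.1 and shControl pairs between 3.46 and 4.9, and values without it are given below for the members, the ratios and the list counts. Without it the KRT5 log2 fold change was -3.36. The BT20 libraries held the epithelial marker EPCAM at 234 ± 1.16 CPM (counts scaled to library size; SD, n = 3) in shControl and 236 ± 1.88 CPM in shCK5-22. Of 8 epithelial markers, KRT19, CDH1, CLDN4, ELF3 and GRHL2 fell, by 0.18 to 0.70 on the log2 scale, and 0 rose; their summed level was between 8292 and 8753 CPM in shControl and between 7581 and 8115 CPM in shCK5-22. Of 12 leukocyte markers, which matter here since macrophages make IL1 beta, FCGR3A, AIF1, TYROBP and MS4A1 were at 0 in all 6 libraries. The summed level of the 12 was between 7.41 and 7.44 CPM in shControl and between 8.74 and 11.4 CPM in shCK5-22. Of the 5 tested, ITGAM and LAPTM5 rose, by 1.27 and 1.67 on the log2 scale. PTPRC, which marks all leukocytes, had 14 counts in each shCK5-22 library against 21 to 26 in shControl. That difference did not pass edgeR's test (adjusted p = 0.178), nor did those of CD14 and CSF1R. Of 10 fibroblast and endothelial markers, PDGFRA was at 0 throughout, 7 were tested, and PECAM1 and COL1A1 fell. CDH5, COL1A2 and VWF did not pass edgeR's test. The endothelial marker CDH5 stood at 21.2 ± 2.3 CPM in shControl and 22.2 ± 5.23 CPM in shCK5-22. PDGFRB, a receptor of mesenchymal cells, and LUM, a matrix proteoglycan, rose from low levels, by 4.22 and 1.85 on the log2 scale. PDGFRB had 0 to 6 counts in shControl and 46 to 80 in shCK5-22, LUM 4 to 10 and 16 to 26, and the collagen gene COL3A1, which did not pass the filter, 2 and 8 to 18. The summed level of the 10 was between 55.8 and 63.9 CPM in shControl and between 47.3 and 60.2 CPM in shCK5-22. The part of leukocyte, fibroblast and endothelial markers in the results below was not tested.

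The agonists and the antagonist moved apart in the knockdown cells. IL1A and IL1B rose, IL1RN fell, IL1R2 and IRAK2 rose, and neither IL1R1 nor IL1RAP passed the test. Of the 7 members with counts, all of which passed the filter on low counts, 4 rose and 1 fell (71.4% called, adjusted p below 0.05), where 34.2% of the 18008 genes tested were called, 17.4% as higher and 16.8% as lower. The median log2 fold change of the 7 was 0.24, against -0.01 over all genes tested. The groups did not overlap for 5 of the 7 (71.4%), against 45.1% of all genes. A change of at least 1.5-fold was called for 4 of them, against 8.01% of all genes. The members were chosen with such results in view, so these shares describe them and test nothing. Because whole cultures were sequenced, fewer cells expressing a gene and less RNA per cell cannot be told apart.

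**Figure D1:**
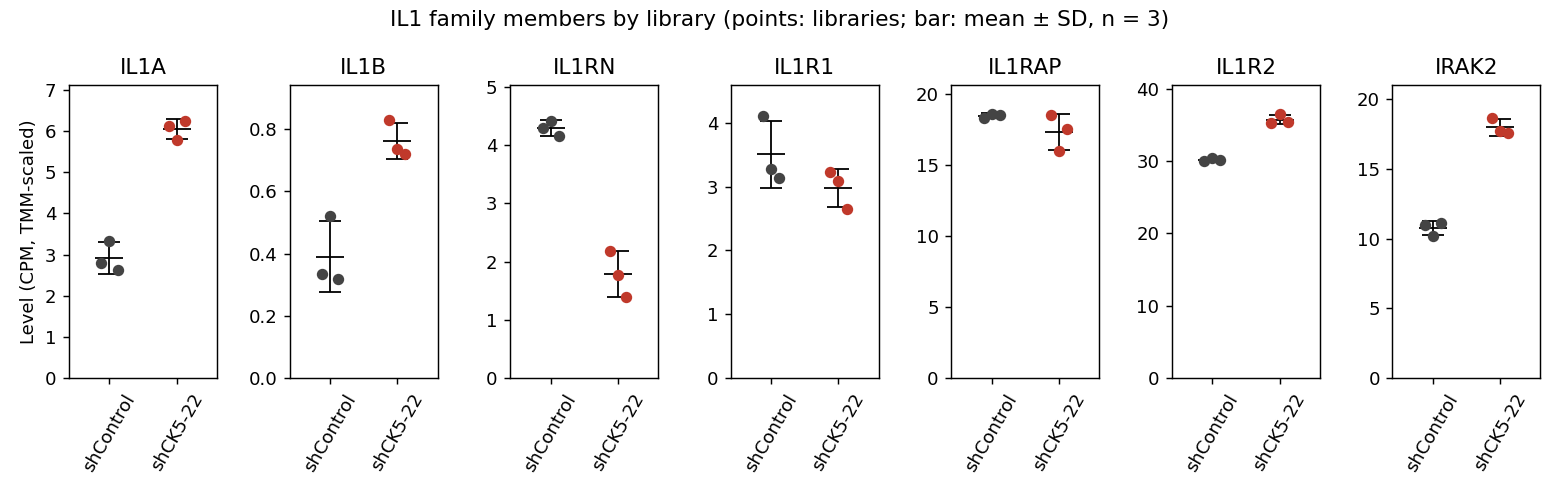
Level of the 7 members with counts in each of the 6 libraries, in TMM-scaled CPM on linear axes that start at 0 and differ between genes; points are libraries and bars the mean ± SD (n = 3). The groups do not overlap for IL1A, IL1B, IL1RN, IL1R2 and IRAK2, and overlap for IL1R1 and IL1RAP.

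In replicates 1, 2 and 3, in that order here and below, the IL1A level was 2.79, 3.34 and 2.62 CPM in shControl libraries and 6.12, 5.79 and 6.24 CPM in shCK5-22 libraries. Every knockdown library was above every control library, and the 3 knockdown values lay close together. The mean rose from 2.92 ± 0.379 to 6.05 ± 0.236 CPM, 2.07-fold (log2 fold change 1.05, SE 0.122, adjusted p = 7.53e-07). The counts behind these levels ran from 134 to 218 in shControl and from 330 to 399 in shCK5-22.

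IL1B was the least abundant of the detected members. Its level was 0.333, 0.521 and 0.317 CPM in shControl and 0.828, 0.736 and 0.719 CPM in shCK5-22, on 16, 34 and 20 and on 54, 44 and 38 counts. The groups did not overlap, and shControl replicate 2 was the highest control library for IL1B as it was for IL1A. The mean rose from 0.39 ± 0.114 to 0.761 ± 0.0586 CPM, 1.93-fold (log2 fold change 0.95, SE 0.314, adjusted p = 0.023). The call was lost under several settings: the adjusted p was 0.0538 with DESeq2, 0.071 without shControl replicate 1, 0.09 without shControl replicate 3 and 0.0654 without shCK5-22 replicate 1, and it ran from 0.0132 to 0.09 over the alternatives.

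IL18, an interferon gamma inducing cytokine, and IL33, an alarmin of barrier epithelia, had 0 counts in every library. The limit that a count of 0 allows, 3 counts in a library, lies between 0.046 and 0.0624 CPM. A listed 0 is not by itself evidence of no transcript, since UBE2V1, a ubiquitin-conjugating subunit that cells use widely, was also listed at 0 in all 6 libraries. No fold change was computed for either cytokine.

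IL1RN had 4.29, 4.42 and 4.15 CPM in shControl and 2.18, 1.77 and 1.4 CPM in shCK5-22, on 206, 288 and 262 and on 142, 106 and 74 counts. All knockdown libraries were below all control libraries, and they were more spread out than the controls, with replicate 1 the highest. The mean fell from 4.29 ± 0.131 to 1.78 ± 0.389 CPM, which is 2.39-fold lower (log2 fold change -1.25 with an SE of 0.155, adjusted p = 1.63e-06). Without shCK5-22 replicate 1 the log2 fold change was -1.43 and without shCK5-22 replicate 3 it was -1.11. IL1RN was the member with the largest absolute log2 fold change and the only one of the 7 that was called lower.

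**Figure D2:**
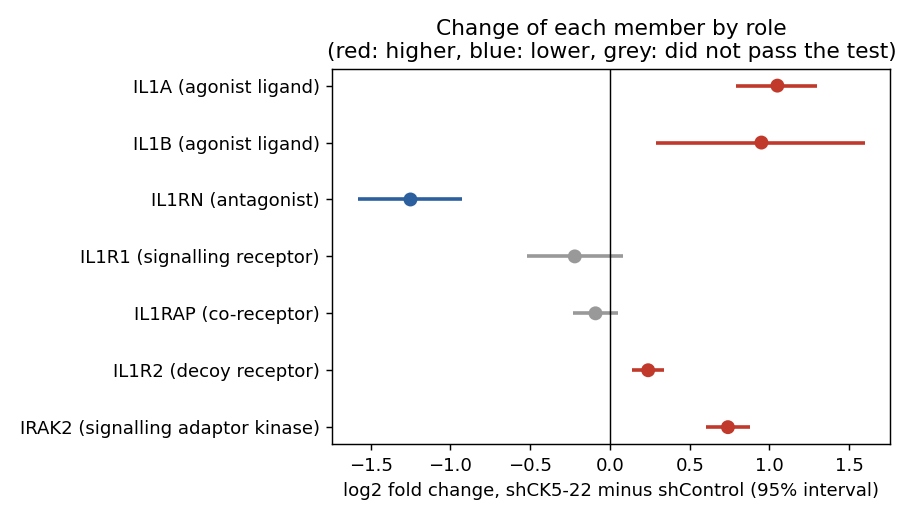
Log2 fold change of each tested member, shCK5-22 minus shControl, with its 95% interval from the edgeR fit of all genes, labelled by role. IL1A (1.05), IL1B (0.95), IRAK2 (0.74) and IL1R2 (0.24) lie above 0, IL1RN (-1.25) lies below it, and the intervals of IL1R1 and IL1RAP include 0.

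The signalling receptor IL1R1 had 4.1, 3.27 and 3.14 CPM in shControl and 3.22, 3.08 and 2.65 CPM in shCK5-22. The groups overlapped, since shCK5-22 replicate 1 exceeded shControl replicate 3. Means were 3.5 ± 0.521 and 2.98 ± 0.297 CPM, and the difference did not pass the test (log2 fold change -0.22, 95% interval -0.52 to 0.08, adjusted p = 0.263). The co-receptor gene IL1RAP, whose product is shared by the IL1, IL33 and IL36 receptors, had 18.3, 18.6 and 18.5 CPM in shControl and 18.5, 16 and 17.5 CPM in shCK5-22. Its log2 fold change was -0.09 with a 95% interval of -0.23 to 0.05 (adjusted p = 0.319). A fall of IL1R1 by up to 0.52 on the log2 scale thus lies within its interval, whereas the interval of IL1RAP is narrower.

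The decoy receptor IL1R2 was the most abundant member in every library. It had 30, 30.4 and 30.1 CPM in shControl and 35.3, 36.5 and 35.4 CPM in shCK5-22, with little spread within either group. The mean rose from 30.2 ± 0.214 to 35.7 ± 0.648 CPM, 1.18-fold (log2 fold change 0.24, SE 0.0474, adjusted p = 0.000359). The 2 inhibitory genes therefore differed in direction, IL1RN being lower and IL1R2 slightly higher. IRAK2, a kinase-like protein that joins the MYD88 complex and sustains NF-kB signalling, had 11, 10.2 and 11.1 CPM in shControl and 18.7, 17.7 and 17.6 CPM in shCK5-22. Its mean rose from 10.8 ± 0.476 to 18 ± 0.634 CPM, 1.67-fold (log2 fold change 0.74, SE 0.0688, adjusted p = 2.88e-08). Without shCK5-22 replicate 1 the log2 fold changes of IL1A, IL1B, IL1R2 and IRAK2 were 1.04, 0.88, 0.25 and 0.71, and those of IL1R1 and IL1RAP were -0.28 and -0.14.

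The balance of inhibitor and agonist was followed as the ratio of their counts within a library, which does not depend on how libraries are scaled. The IL1RN to IL1A count ratio was 1.54, 1.32 and 1.59 in shControl and 0.357, 0.307 and 0.225 in shCK5-22. Antagonist counts thus exceeded IL1A counts in all 3 control libraries and were below them in all 3 knockdown libraries. Counts are not scaled to gene length, and the exons of IL1RN are longer (3.26 against 2.12 kb). Per kb of exon, IL1A was 0.965 to 1.16 times IL1RN in shControl, near equal, and 4.31 to 6.84 times in shCK5-22. The mean log2 ratio went from 0.56 ± 0.141 to -1.78 ± 0.338, 5.07-fold lower. The IL1RN to IL1B count ratio was 12.5, 8.36 and 12.8 in shControl and 2.61, 2.39 and 1.94 in shCK5-22, 4.8-fold lower on average. Antagonist counts stayed above IL1B counts in every library. The IL1R2 to IL1R1 count ratio was 7.29, 9.29 and 9.57 in shControl and 10.9, 11.8 and 13.3 in shCK5-22, 1.38-fold higher on average. For each of these 3 ratios the groups did not overlap, and the two-sided exact permutation test gave p = 0.1 (adjusted over the 3 ratios, 0.1), the smallest value that 3 against 3 libraries allow, so this test cannot reach the threshold for a ratio. Without shCK5-22 replicate 1 the differences in mean log2 ratio were -2.49, -2.36 and 0.53, against -2.34, -2.26 and 0.47 with it.

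**Figure D3:**
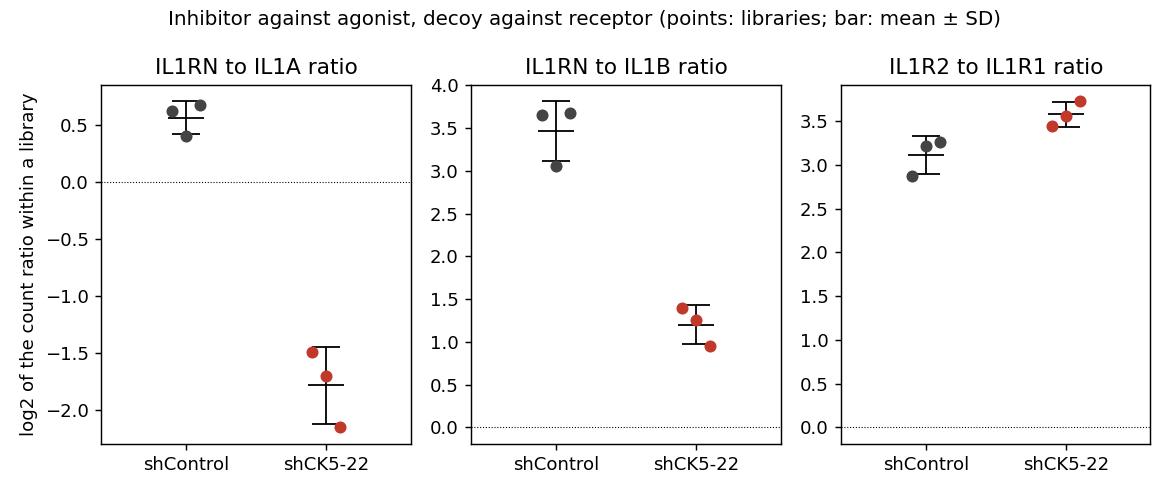
Log2 of the ratio of counts within each library for IL1RN to IL1A, IL1RN to IL1B and IL1R2 to IL1R1; points are libraries, bars the mean ± SD (n = 3), and the dotted line marks equal counts. The IL1RN to IL1A ratio lies above the line in the 3 shControl libraries and below it in the 3 shCK5-22 libraries. Counts are not scaled to gene length, so the line does not mark equal levels.

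To compare levels between genes, CPM was divided by the length of all annotated exons of a gene joined together, in kb. In shControl the order of these length-scaled levels was IL1R2 (9.81 ± 0.0697 CPM per kb), IRAK2 (3.1 ± 0.137), IL1RAP (1.6 ± 0.0131), IL1A (1.37 ± 0.179), IL1RN (1.32 ± 0.0401), IL1R1 (0.494 ± 0.0736) and IL1B (0.126 ± 0.0367). IL1A and IL1RN overlapped and could not be ordered, while the other neighbours did not overlap. In shCK5-22, IL1A moved above IL1RAP, at 2.85 ± 0.111 against 1.5 ± 0.107 CPM per kb, and IL1RN dropped to 0.548 ± 0.119, where it overlapped IL1R1 at 0.421 ± 0.0419. Per length, IL1R2 exceeded IL1R1 between 16.8 and 22.1 times in shControl libraries and between 25.3 and 30.8 times in shCK5-22 libraries. IL1A exceeded IL1B between 9.35 and 12.2 times and between 10.8 and 12.7 times, ranges that overlap. The isoforms in use are unknown, so these length-scaled levels are approximate.

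Among 10459 other genes with a mean of at least 5 CPM, those whose log2 CPM over the 6 libraries was most like that of IL1A were SBDSP1 (Pearson r = 0.9991), a pseudogene whose reads may be shared with its parent gene, PKP4 (0.9989) and DHX37 (0.9986). The 6 libraries form 2 groups, and r spans both. The changes of those genes were smaller, with log2 fold changes of 0.21, 0.28 and 0.17.

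The rest of the ligand and receptor family was mostly low. Of 7 other ligands and soluble inhibitors, 3 passed the filter and 0 were called by edgeR, with 0 also by DESeq2 and limma-voom and 0 at an unadjusted p below 0.05. IL36RN, the antagonist of the IL36 receptor, stood at 1.63 ± 0.106 and 1.81 CPM, and IL18BP, the soluble inhibitor of IL18, at 5.41 ± 0.253 and 5.63 CPM. IL36A had 0 counts, and IL36B, IL36G and IL1F10 had at most 10 in a library. Of 7 other receptor genes, 5 were tested, of which 2 rose and 1 fell (60% called, against 34.2% of all genes), and 3 were called without shCK5-22 replicate 1. IL1RAPL1, a synaptic relative of IL1RAP, rose by 0.56 in log2 terms, from 14.8 ± 0.424 to 21.9 ± 0.456 CPM (adjusted p = 2.36e-07). IL1RL2, the IL36 receptor, rose by 0.57 (adjusted p = 0.0262), a call lost without shControl replicate 1, without shControl replicate 3 or without shCK5-22 replicate 3. SIGIRR, an inhibitory receptor of the family, fell by 0.29 (adjusted p = 0.00834), a call lost without shControl replicate 3. IL18R1 had a level of 6.43 ± 0.45 CPM in shControl and 6.56 ± 0.386 CPM in shCK5-22, while IL1RL1, the IL33 receptor, had 0 counts throughout.

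Of 18 tested genes of the receptor-proximal signalling list, 4 rose and 3 fell (38.9% called, near the 34.2% of all genes), with a median log2 fold change of 0.02, and 8 were called without shCK5-22 replicate 1. MYD88, the adaptor, fell by 0.21 from 110.2 ± 1.98 to 95.2 ± 2.24 CPM, and IRAK1 rose by 0.18 from 586 ± 9.97 to 664 ± 5.6 CPM. IRAK4, the first kinase of the complex, stood at 12.3 ± 0.673 and 12.2 ± 0.401 CPM and TRAF6, the ubiquitin ligase downstream, at 17.3 ± 0.945 and 17.7 ± 1.93 CPM. IRAK3, a kinase-dead inhibitor of the pathway, rose by 1.20 (adjusted p = 0.0107) on 10 to 37 counts in shControl and 46 to 51 in shCK5-22, a call lost without shControl replicate 1 or without shControl replicate 3 (highest adjusted p 0.058). The largest fall was that of IKBKG, the regulatory subunit of the IkB kinase, by 0.82 from 62.1 ± 1.01 to 35.1 ± 1.28 CPM, but it has a near-identical pseudogene, IKBKGP1, and its count is uncertain. TAB1, a partner of the kinase TAK1, fell by 0.38.

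Of 19 tested genes for inflammasomes and cytokine processing, 2 rose and 5 fell (36.8% called, near the 34.2% of all genes), with a median log2 fold change of -0.06, and 8 were called without shCK5-22 replicate 1. CASP1, which cleaves the IL1 beta and IL18 precursors, was low, with 0.68 ± 0.197 CPM in shControl and 0.542 ± 0.129 CPM in shCK5-22, a difference that missed the threshold (log2 fold change -0.33, adjusted p = 0.463). AIM2, a sensor of cytosolic DNA, fell by 0.37 from 17.3 ± 1.54 to 13.4 ± 0.441 CPM, and CAPNS1, the small subunit of the calpains that cleave the IL1 alpha precursor, fell by 0.38. ERAP1, an aminopeptidase, rose by 0.60, and DFNA5, listed under that older symbol of the gasdermin gene GSDME, rose by 0.56 from 11.9 ± 1.74 to 17.5 ± 0.567 CPM (adjusted p = 3.14e-05).

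Downstream of the receptor, most genes of the lists rose. Of 15 tested NF-kB subunits and feedback inhibitors, 11 rose and 2 fell (86.7% called; median log2 fold change 0.23), where 34.2% of all genes were called, 17.4% as higher and 16.8% as lower. NFKBIE rose by 0.79 from 34.3 ± 0.881 to 59.1 ± 1.51 CPM and RELB by 0.73 from 42.6 ± 1.57 to 70.5 ± 2.38 CPM, and the feedback inhibitors TNFAIP3 and NFKBIA rose by 0.47 and 0.44. NFKBIZ and TNIP2 were the 2 that fell, by 0.33 and 0.34. Of 18 tested genes known to be induced by IL1, 13 rose and 4 fell (94.4% called; median 1.03), against the same shares of all genes. Without shCK5-22 replicate 1 the numbers called were 13 and 17 in these lists, as with it. The neutrophil chemokine gene CXCL1 rose by 1.83 from 0.836 ± 0.0915 to 2.97 ± 0.313 CPM (adjusted p = 7.21e-08), and CXCL8, another of that kind, rose by 1.21 from 5.43 ± 0.148 to 12.6 ± 0.9 CPM. TRAF1, an adaptor of TNF receptors, rose by 1.6 from 13.7 ± 1.28 to 41.7 ± 3.91 CPM (adjusted p = 2.60e-11). Smaller rises included those of CXCL2 by 1.1, BIRC3 by 1.09 and IL6 by 0.96. The adhesion molecule gene ICAM1 rose by 0.82 from 24.1 to 42.7 CPM. The log2 fold changes of MMP3, TNF and MMP9 were larger than that of CXCL1, at 4.01, 2.34 and 2.26. These 3 genes had at most 8, 4 and 18 counts in a shControl library. Falls were seen for 4: LCN2, an iron-binding acute phase protein, fell by 1.34 and the cytokine gene LIF fell by 0.33, and PTGS2 and PTGES, enzymes of prostaglandin synthesis, fell by 1.12 and 0.48. Many of these genes respond to other signals as well, the list was written with earlier results of these data known, and whether the levels of IL1A, IL1B or IL1RN bear on it was not tested.

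**Figure D4:**
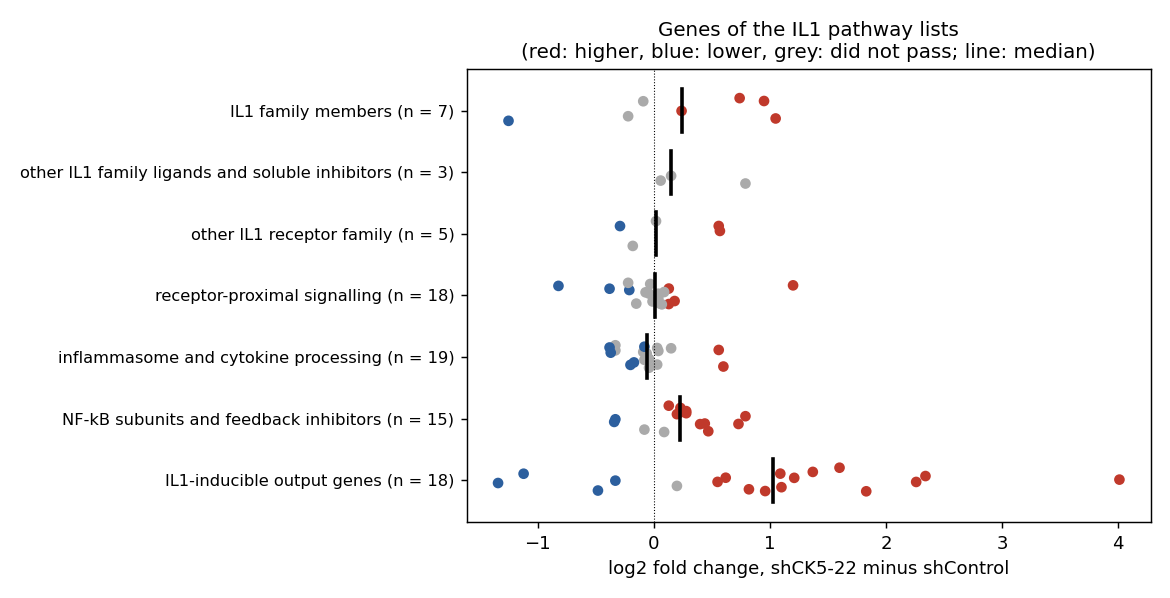
Log2 fold change (shCK5-22 minus shControl) of each tested gene of the 7 lists, with the number tested; red genes were called higher, blue lower and grey did not pass, and the black line is the median. The medians are 0.24 for the members, between -0.06 and 0.23 for the other lists up to the NF-kB genes, and 1.03 for the IL1-inducible genes.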

How the data were processed

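Groups and replicate numbers come from the sample titles. The authors deposited 1 table of whole-number read counts per gene symbol. Per the submitters' processing notes, tools included cutadapt, STAR, SAMtools and Cufflinks with GRCh38; the sources used here do not give the counting tool, annotation, strand use, read layout or handling of multi-mapping reads. Of 56505 rows, 27 had a date for a symbol (0.167% to 0.175% of counts) and were left out. Counts were mostly even when low: 2 occurred 13017 times and 1 occurred 1123 times, as when both mates of a read pair are counted, so fragments may be fewer than counts, and floors cover counting error only.

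The 2 groups were compared with edgeR 4.0.16 (R 4.3.3): quasi-likelihood test with robust estimation, TMM scaling, filterByExpr and Benjamini-Hochberg adjustment over the 18008 genes tested, two-sided, threshold 0.05. Every adjusted p is from it unless another tool is named. SEs come from the fold change and F statistic. The script was tested on simulated data. Since no label says that replicates are separate cultures, the spread that p-values measure may be technical. The members and gene lists were chosen with earlier results of these data known. Named are all members, KRT5, the direct partners MYD88, CASP1, IL18BP, IL18R1, IL1RL1, IRAK1, IRAK3, IRAK4 and TRAF6, in each list up to 4 called genes of at least 1 CPM with the largest change, and the 3 genes most like the most abundant ligand gene; other list genes were added after their values were seen. Ratios used a pseudocount of 0.5 per count. Alternatives were other scalings and filters, a threshold of 0.01, DESeq2 1.42.0, limma-voom (limma 3.58.1), a replicate block, each library left out and, chosen after seeing the data, halved counts.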

Additional observations from a re-analysis of the deposited data

How the results depend on the processing

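IL1A, IL1RN, IL1R2 and IRAK2 kept their direction and stayed past the threshold under each of the 16 alternatives, and IL1R1 and IL1RAP stayed short of it. Their log2 fold changes ran from 0.97 to 1.16, -1.43 to -1.11, 0.23 to 0.25, 0.70 to 0.76, -0.29 to -0.10 and -0.14 to -0.04. IL1B kept its direction (0.81 to 1.23) but lost its call with DESeq2, at the threshold of 0.01 and without shControl replicate 1, shControl replicate 3 or shCK5-22 replicate 1, and it was not tested with the filter of at least 1 CPM in 3 libraries. The number of members called was 4 or 5 throughout. Genes called in all numbered 6153, between 4910 and 6185 when 1 library was left out, 4382 at the threshold of 0.01 and 6172 with halved counts. Whether replicate numbers pair the libraries was not settled. Same-numbered libraries deviated from their group means with correlations of 0.06, 0.13 and -0.02. Libraries of unlike number had correlations of -0.13 to 0.06, and not every library correlated best with its own number. With the replicate block 6743 genes were called, more than the 6153 without it. The same 5 members were called, and the IL1RN log2 fold change was -1.27. Of the genes that did not pass, signs turned when a library was left out for IL18R1 (-0.03 to 0.06), IRAK4 (-0.05 to 0.02), TRAF6 (-0.05 to 0.11) and IL18BP (-0.00 to 0.14). The ratios kept their direction, with differences in mean log2 ratio of -2.49 to -2.16 for IL1RN to IL1A, -2.46 to -2.09 for IL1RN to IL1B and 0.35 to 0.54 for IL1R2 to IL1R1; paired by replicate number they were -2.34, -2.26 and 0.47 (exact sign-flip p = 0.25, the smallest possible). Depth limits IL1B, IRAK3 and CASP1, which had at most 54, 51 and 58 counts in a library.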
